A study of Homo sapiens with 6 samples.

Results

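The genes of glycolysis and of the hypoxia-inducible factor (HIF) pathway were examined in BT-549, an established cell line of human triple-negative breast cancer. They were taken by symbol from a fixed list of 40 genes that covers HIF subunits, HIF regulators, glycolytic enzymes, regulators of glycolysis, glucose and lactate transporters, and further HIF targets. All 40 were found among the 19792 genes of the table. The cells carried a tetracycline-inducible WDR5 shRNA under puromycin selection, so that doxycycline (DOX) lowers WDR5, a core subunit of the COMPASS H3K4 methyltransferases. RNA-seq covered 6 libraries, of which 3 came from cultures given 0.1% DMSO as the vehicle and 3 from cultures given 500 ng/ml DOX, in each case for 7 days. Cells of both groups held the shRNA cassette, and no library of a line without it was analysed here.

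The values below are the authors' mean normalized count of each gene over all 6 libraries. Vehicle and DOX cultures are thus pooled in each value, and the 2 groups were not compared here, because the other columns of the table are the authors' own comparison. No single library was analysed on its own, so no value carries a spread between cultures, no test was made, and the depth of each library is unknown. To compare genes, each mean was divided by the length of the gene's canonical transcript and scaled to a sum of 1000000 over the 18320 genes with a length. This quantity is the level, and in bulk RNA it does not tell apart fewer cells that express a gene from less RNA per cell. Levels were also computed with the length of all annotated exons and with the coding length, which moved the members by a median of 1.83-fold between the lowest and the highest of these 3 settings. Mesenchymal markers were abundant, and most luminal and epithelial markers were scarce. VIM had a mean normalized count of 47782 and FN1 of 30461, whereas ESR1, PGR, FOXA1 and EPCAM had means of 0.79, 0.801, 0.516 and 1.30. Exceptions were KRT18 and GATA3, with means of 435 and 362 and levels of 30.6 and 11.7. CDH1 and KRT8 had means of 59.6 and 57.3. Of the markers of leukocytes, endothelium and liver, PTPRC had a mean of 44.7, PECAM1 of 2.86 and ALB of 4, and CD3E had no row. WDR5 itself had a pooled mean of 1143.

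Glycolysis splits glucose into pyruvate in the cytosol, and lactate dehydrogenase then turns pyruvate into lactate. HIF is a dimer of an alpha subunit and ARNT. When oxygen is available, prolyl hydroxylases mark the alpha subunit, VHL targets it for degradation, and an asparaginyl hydroxylase blocks its activity. In hypoxia the alpha subunit is stable and activates genes of glucose uptake, glycolysis, pH control and mitophagy. Tumor cells often run glycolysis in the presence of oxygen as well.

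Transcripts of this group were abundant. The 40 genes held 1.76% of the summed mean normalized counts and 2.36% of the summed level. Their median level was 106, against 7.96 for all genes with a length, and 37 of the 40 lay above that median. The top 10% of genes by level included 21 members, and the top 1%, which is 183 genes, included 7. Among protein-coding genes alone the median level was 12.7, with 34 of the 40 above the median and 18 in the top 10%. The members spanned from GAPDH at a level of 6376 to EGLN3 at 0.245. By role, the 17 glycolytic enzymes had a median level of 393, the 3 HIF subunits of 183, the 4 HIF regulators of 55.3, the 8 other HIF targets of 43.1, the 4 transporters of 37.8 and the 4 regulators of glycolysis of 33.3. These role medians use the canonical transcript and were not computed with the other lengths. Between the 3 length settings the level of PDK3 moved by 5.48-fold, that of HIF1AN by 5.14-fold and that of PDK1 by 4.48-fold. EGLN3 alone had a mean normalized count under 10.

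**Figure D1:**
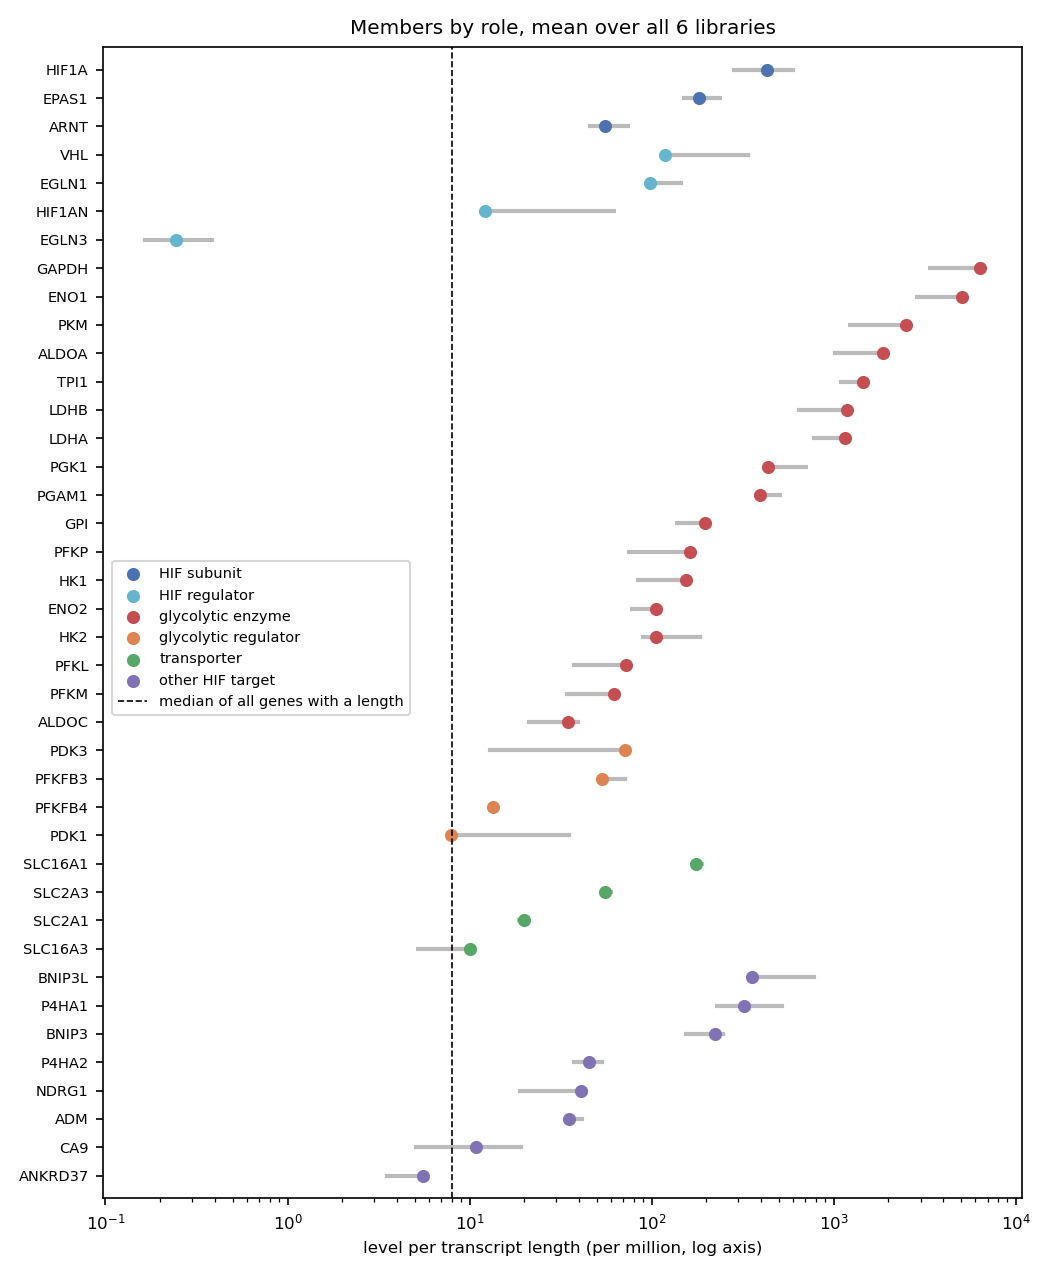
Level of each of the 40 genes per transcript length (scaled to a sum of 1000000, log axis), grouped and coloured by role, from the authors' mean over all 6 libraries. Points use the canonical transcript, grey bars span the 3 length settings and do not show replicate error, and the dashed line marks the median of all genes at 7.96, with EGLN3 far to its left.

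Among the HIF subunits, transcripts of the alpha subunit exceeded those of the partner. HIF1A, which encodes the alpha subunit found in nearly all cell types, spans chr14:61695513-61748259 (GRCh38, GENCODE 44) and had a mean normalized count of 17019 and a level of 428. EPAS1, on chromosome 2 from 46293667 to 46386697, encodes the HIF2 alpha subunit and had a mean of 9484 and a level of 183. HIF1A thus exceeded EPAS1 by 2.34-fold per length, and by 1.79-fold to 2.54-fold over 4 ways of treating length (these 3 and no correction). ARNT, the shared beta subunit, had a mean of 2639 and a level of 55.6. The related subunit genes HIF3A and ARNT2 had means of only 4.13 and 0.704.

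The genes that hold HIF in check differed widely in level. VHL, the substrate receptor of the ubiquitin ligase, had a mean normalized count of 5243 and a level of 118. EGLN1, the main prolyl hydroxylase of HIF in normoxia, had a mean of 4299 and a level of 98.5. HIF1AN, the asparaginyl hydroxylase, had a mean of 1580 and a level of 12.1. Its canonical transcript of 12927 bases lowers that level, which was 62.4 by coding length. EGLN3, a prolyl hydroxylase that is itself a HIF target, stood apart with a mean of 6.68, and its level was lower than that of EGLN1 by 402-fold (361-fold to 881-fold over the 4 ways). EGLN3 lies on chromosome 14 from 33924227 to 34462774. EGLN2, the related hydroxylase outside the list, was given a mean of only 1.38. In GENCODE 44 it shares 30.6% of its exon bases on the same strand with the readthrough gene RAB4B-EGLN2, which had no row, and the part of this overlap in the low value was not tested.

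The enzymes of glycolysis were unequal along the pathway. Hexokinase, glucose-6-phosphate isomerase and phosphofructokinase, the first 3 steps, had summed levels of 260, 196 and 297. Each of the 8 later steps was higher. Aldolase had a summed level of 1894, triosephosphate isomerase of 1451 and glyceraldehyde-3-phosphate dehydrogenase of 6376. Phosphoglycerate kinase and phosphoglycerate mutase were lower, at 437 and 393. Enolase reached 5146, pyruvate kinase 2503 and lactate dehydrogenase 2338. The first 3 steps together made up 3.53% of the summed glycolytic level, whereas glyceraldehyde-3-phosphate dehydrogenase and enolase made up 54.1%. The highest step exceeded the lowest by 32.6-fold. The lowest of the later steps exceeded the highest of the first 3 by 1.32-fold, a small gap for which no spread between cultures was at hand. That order held with all 3 lengths. Without a length correction it was broken by phosphoglycerate mutase alone, with a mean normalized count of 7132 against 8133 or more for the first 3 steps, and the other 7 later steps stayed above them.

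**Figure D2:**
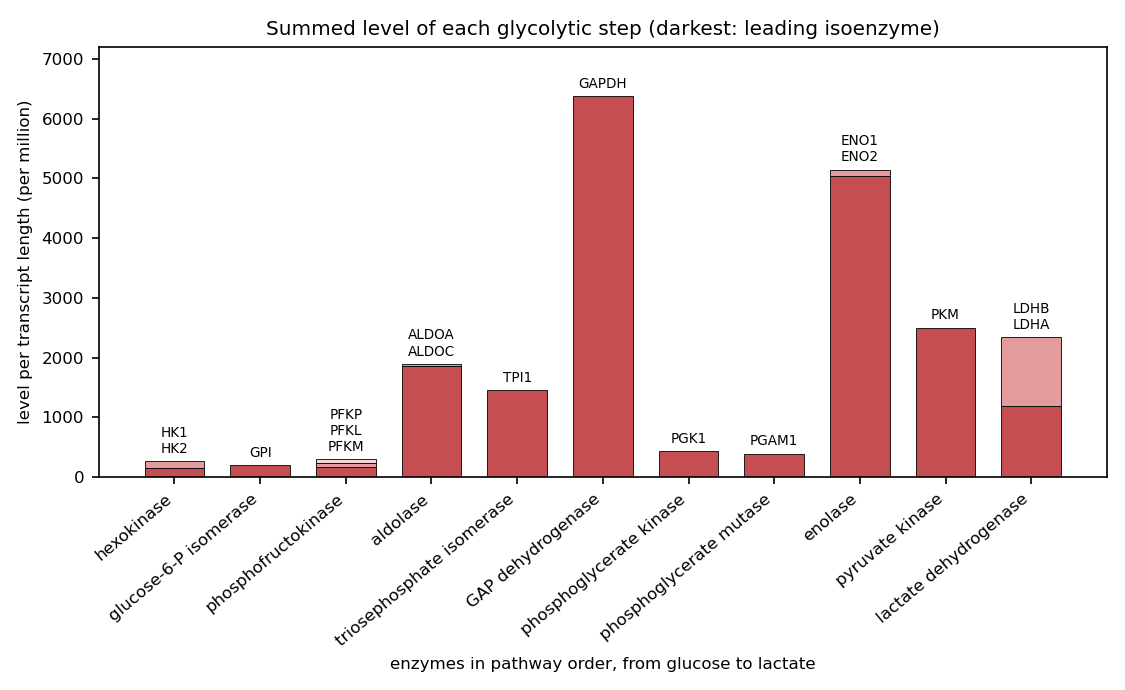
Summed level of each glycolytic step (scaled to a sum of 1000000) in pathway order, with each bar divided by isoenzyme gene and the leading gene darkest, from the authors' mean over all 6 libraries. The first 3 bars reach 260, 196 and 297, while the bars of GAPDH and enolase reach 6376 and 5146.

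At the entry of glucose, HK1 and HK2, which phosphorylate it, were close. HK1 had a mean normalized count of 5597 and a level of 154, and HK2, the inducible hexokinase of many tumors, had a mean of 5983 and a level of 106. HK1 led by 1.46-fold with the canonical transcript, but HK2 led with the other lengths, so that neither can be named the main hexokinase from these values. HKDC1 had a mean of 47.0, and HK3 had no row. GPI, the isomerase of the next step, had a mean of 8133 and a level of 196. Of the phosphofructokinase genes, PFKP, the platelet type, had a mean of 4281 and a level of 162 and held 54.6% of the step. PFKL, the liver type, and PFKM, the muscle type, had means of 2125 and 1933 and held 24.5% and 20.9%.

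At aldolase and enolase a single gene held nearly all of the step. ALDOA, on chromosome 16 from 30064164 to 30070457, had a mean normalized count of 30711 and a level of 1859. ALDOC, the brain type aldolase, had a mean of 564 and a level of 34.8, so that ALDOA held 98.2% of the step. ENO1, the ubiquitous enolase on chromosome 1 from 8861000 to 8879190, had the highest mean of the group at 90412, with a level of 5040. ENO2, the enolase known from neurons, had a mean of 2454 and a level of 106, and the muscle enolase ENO3 a mean of 24.1. ENO1 exceeded ENO2 by 47.5-fold. TPI1 had a mean of 19744 and a level of 1451. GAPDH, on chromosome 12 from 6534512 to 6538374, had a mean of 82531 and ranked 6 among all genes by level. PGK1 had a mean of 21176 and a level of 437, and PGAM1 had a mean of 7132 and a level of 393. BPGM, which makes the regulator of hemoglobin and can also act as a mutase, had a mean of 1258. PKM, which gives rise to the spliced forms PKM1 and PKM2 that a gene count does not separate, had a mean of 58116 and a level of 2503.

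At the last step LDHA and LDHB, whose subunits form the tetramers of lactate dehydrogenase, were nearly equal in level with the canonical transcript. LDHA, on chromosome 11 from 18394560 to 18408425, is a known HIF target and had a mean normalized count of 25934 and a level of 1149. LDHB, on chromosome 12 from 21635342 to 21757857, had a mean of 15603 and a level of 1189. LDHB held 50.9% of the step with the canonical transcript and 37.4% by coding length, so the order of the pair depends on the length used. LDHC had a mean of 2.06.

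The regulators of glycolysis had a lower median level than the enzymes (33.3 against 393), although with the canonical transcript PDK3 and PFKFB3 lay above ALDOC, and PDK3 above PFKM. PFKFB3 makes the allosteric activator of phosphofructokinase and had a mean normalized count of 2401 and a level of 53.2, against a mean of 475 and a level of 13.5 for PFKFB4. The pyruvate dehydrogenase kinases inhibit pyruvate dehydrogenase in the mitochondrial matrix. PDK1, a HIF target, had a mean of 1115, and PDK3 one of 1249. The level of PDK3 was 71.2 and that of PDK1 was 7.86, a 9.06-fold gap that rests on canonical transcripts of 1741 and 14072 bases and was absent with all exons (0.953-fold) or small without a length correction (log2 ratio 0.16). Of the kinase genes outside the list, PDK4 had a mean of 352 and PDK2 of 149.

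Among the transporters, SLC2A3 and SLC16A1 led. SLC2A3, the high-affinity glucose transporter GLUT3, had a mean normalized count of 2142 and a level of 55.6, whereas SLC2A1, the widespread transporter GLUT1, had a mean of 680 and a level of 19.9. The ratio was 2.79-fold and stayed between 2.79-fold and 3.15-fold over the 4 ways of treating length. SLC2A14, a close copy of SLC2A3, had a mean of 12.3, and reads of such copies are not always told apart. SLC16A1, the lactate transporter MCT1, had a mean of 6635 and a level of 176. SLC16A3, the lactate exporter MCT4 and a HIF target, had a mean of 263 and a level of 10.1, lower by 17.4-fold (17.4-fold to 36.7-fold over the 4 ways).

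**Figure D3:**
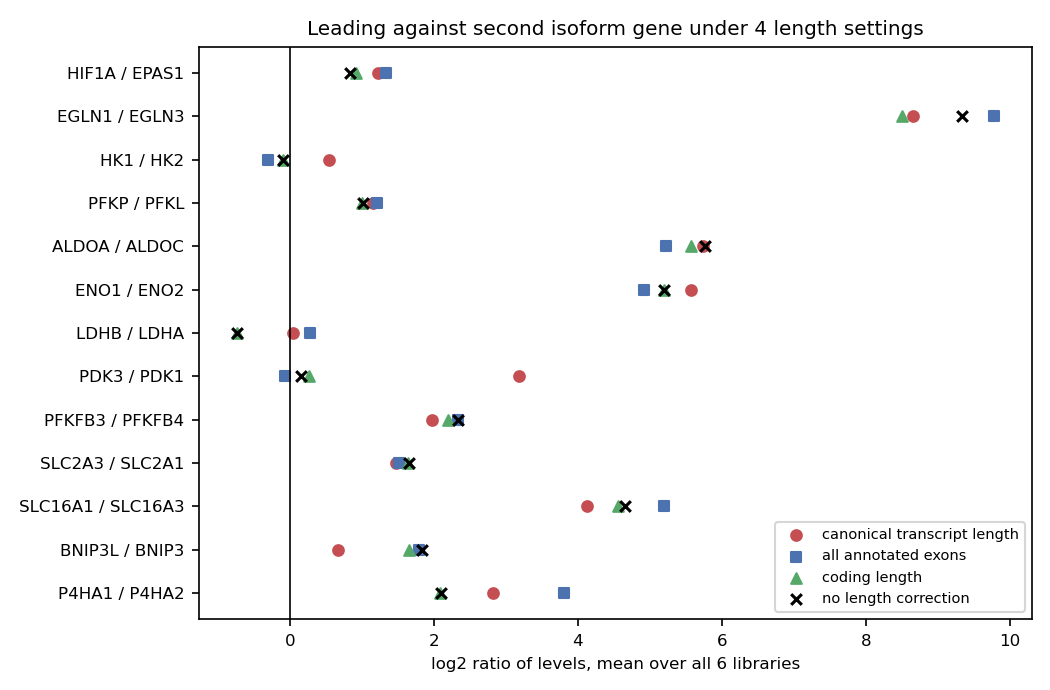
Log2 ratio of the leading to the second gene in each of the 13 steps or families with more than 1 member, computed from the authors' mean over all 6 libraries with 4 ways of treating length. Points to the right of 0 favour the gene named first, and the pairs HK1 and HK2, LDHB and LDHA, and PDK3 and PDK1 are those with points on both sides.

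The leading gene was the same with all 4 length settings in 10 of these 13 families. The exceptions were hexokinase, lactate dehydrogenase and pyruvate dehydrogenase kinase. Ordered by level, the 40 genes gave 39 neighbouring pairs, of which 35 differed by at most 1.5-fold, and 18 pairs kept their order with all 3 lengths. With no spread between cultures at hand, neighbours within 1.5-fold were not told apart.

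The other HIF targets ranged widely in level, and 7 of the 8 lay above the median of all genes. BNIP3L and BNIP3, receptors of mitophagy, had mean normalized counts of 12312 and 3461 and levels of 354 and 223. P4HA1, the alpha subunit of a collagen prolyl hydroxylase, had a mean of 8873 and a level of 321, and P4HA2, its paralog, a mean of 2076 and a level of 45.3. NDRG1, a gene induced by hypoxia and differentiation, had a mean of 1244 and a level of 40.8. ADM, the vasodilator peptide adrenomedullin, had a mean of 532 and a level of 35.4. CA9, a carbonic anhydrase of the cell surface that serves as a marker of hypoxia, had a mean of 170 and a level of 10.9. Its paralog CA12 had a mean of 2737 and a level of 44.6. ANKRD37 had a mean of 43.9 and a level of 5.56, the lowest of the group after EGLN3. For CA9 and ANKRD37, 35.7% and 40.3% of exon bases lie opposite exons of ARHGEF39 and UFSP2 on the other strand, and the strand setting of the authors' counter is not given in the sources used here.

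HIF binds DNA at the core ACGTG or GCGTG. Promoter windows of 300 bases, from 250 before to 50 after the RefSeq start site (GRCh38.p14), were at hand for 35 of the 40 genes, and the core was searched on both strands, where the same cores read CACGT and CACGC, with the palindrome CACGTG counted once. It was present in 24 of the 35 windows (68.6%), against 48.4% of all 27305 windows and 63.4% of the 10149 windows that belong to genes whose mean was 10 or more. The ACGTG form alone was in 40% of the members' windows and in 26.8% of those 10149. The median GC content was 69.7% in the members' windows and 65.3% in the 10149. A match describes the sequence and is not a binding site. By role the core was found in 12 of 17 windows of glycolytic enzymes, 5 of 6 of the other HIF targets, 3 of 4 of the regulators of glycolysis, 2 of 3 of the HIF subunits, 1 of 3 of the HIF regulators and 1 of 2 of the transporters. BNIP3 held 5 matches, ALDOC, LDHA and PGK1 held 4 each, and HK2 held 3. No match was found in the windows of ARNT, EGLN3, HIF1AN, HK1, PFKM, PFKP, TPI1, PGAM1, PDK1, SLC16A3 and P4HA2, and windows of VHL, SLC2A3, SLC16A1, BNIP3L and NDRG1 were not analysed here. Only 1 start site per gene was searched, so a window without a match does not show that the gene's other promoters lack the core. Among the windows without a match, those of PDK1 and HK1 had a GC content of only 36.3% and 46.7%.

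The 2 windows with the most matches before the start site are shown over the 250 bases that precede it, 5′ to 3′ on the gene's strand, with matches in capitals (CACGTG in full where it occurs). BNIP3 lies on the minus strand at chr10:131981924-131982173 and ALDOC on the minus strand at chr17:28576896-28577145. In BNIP3 the matches crowd together about the middle of the stretch, whereas in ALDOC they are spread over its length.
BNIP3: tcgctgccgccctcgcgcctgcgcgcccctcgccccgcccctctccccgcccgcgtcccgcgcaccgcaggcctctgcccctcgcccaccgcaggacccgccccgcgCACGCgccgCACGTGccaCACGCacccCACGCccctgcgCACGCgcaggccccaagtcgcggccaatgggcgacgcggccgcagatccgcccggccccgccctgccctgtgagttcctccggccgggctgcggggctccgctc
ALDOC: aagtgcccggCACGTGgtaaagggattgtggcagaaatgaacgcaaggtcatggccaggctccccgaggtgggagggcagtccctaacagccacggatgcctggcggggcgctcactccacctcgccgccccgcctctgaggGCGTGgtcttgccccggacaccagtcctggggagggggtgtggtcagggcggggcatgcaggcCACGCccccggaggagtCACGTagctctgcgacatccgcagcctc

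To show the core in abundant genes of 4 roles, the match nearest before the start site is given where 12 bases fit on each side of it (5′ to 3′ on the gene's strand, core in capitals). With the canonical transcript, each gene had the highest level with such a match among the HIF subunits, the glycolytic enzymes, the regulators of glycolysis and the other HIF targets, respectively. PFKFB3 exceeded PDK3 with all exons (71.4 against 13.0) and with the coding length (63.7 against 42.4). The printed stretch of HIF1A spans chr14:61695297-61695325 on the plus strand, and that of GAPDH chr12:6535171-6535199 on the plus strand. The stretch of PDK3 spans chrX:24465213-24465241 on the plus strand, and that of P4HA1 chr10:73096936-73096964 on the minus strand. The cores begin 204, 81, 61 and 86 bases before the respective start sites. That of GAPDH is part of CACGTG. The stretches of GAPDH and P4HA1 lie within the span of their genes in GENCODE 44, and those of HIF1A and PDK3 lie upstream of theirs. For GAPDH and P4HA1 the start site searched is thus inside the gene span. How much of their level comes from transcripts that begin there was not tested.
HIF1A: tggctgagagcgGCGTGggctggggtggg
GAPDH: gctctgcggggtCACGTgtcgcagaggag
PDK3: cgcgcgccgcgtACGTGcagcaaccgact
P4HA1: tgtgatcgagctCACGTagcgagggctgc

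Set beside neighbouring pathways, the glycolytic enzymes had the highest median level at 393, but only part of them stood out from the TCA cycle genes. The 16 TCA cycle genes had a median level of 129 and ranged from 31.3 for IDH3A to 287 for MDH2. The median glycolytic enzyme was 3.05-fold higher, and 9 of the 17 glycolytic enzymes lay above MDH2, while none lay below IDH3A. The 7 pentose phosphate genes had a median level of 135, with PGD highest at 530 and RPIA lowest at 25.1. The 7 genes that bring pyruvate into the TCA cycle had a median of 75.9, from MPC1 at 35.8 to PDHA1 at 104. Of 7 gluconeogenic genes, 5 had a row, and FBP1, the fructose bisphosphatase that opposes phosphofructokinase, had a mean normalized count of 4.01. PCK2 was the highest of these at a level of 90.1. The 12 HIF targets outside the group had a median level of 106, with DDIT4 highest at 1046 and INSIG2 lowest at 11.7, and VEGFA had a level of 194. The 8 other HIF targets of the group had a median of 43.1. Medians of these lists describe pooled libraries and were not tested.

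**Figure D4:**
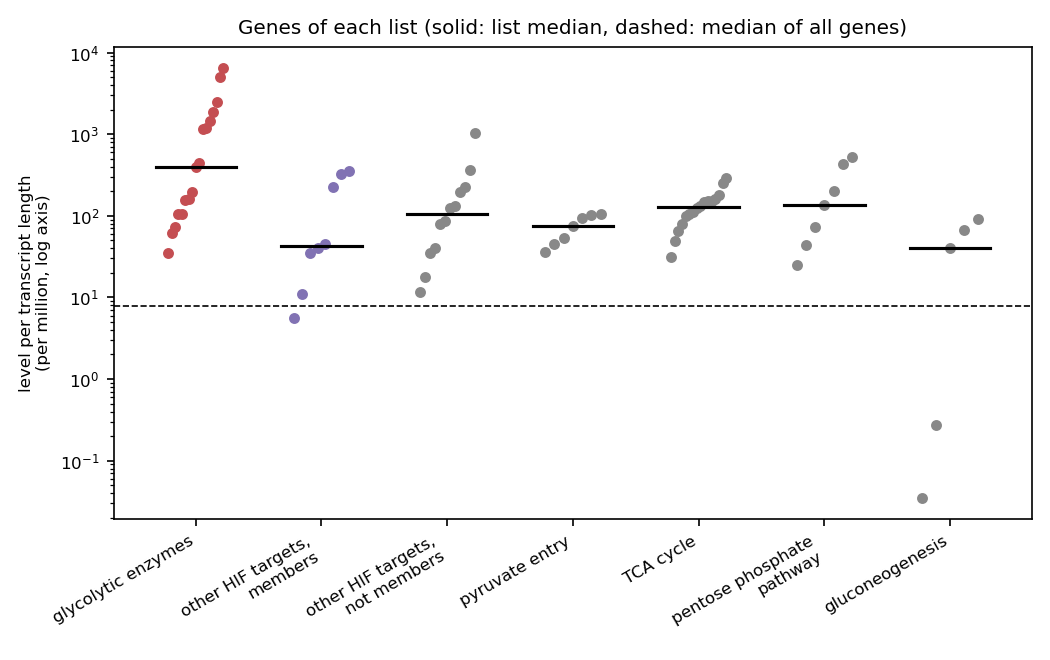
Level of each gene (scaled to a sum of 1000000, log axis) in 7 lists, from the authors' mean over all 6 libraries, with list medians as solid lines and the median of all genes (7.96) dashed. Glycolytic enzymes reach 6376 and have the highest list median at 393, and the 2 lowest points of gluconeogenesis are FBP1 and FBP2.

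Copies and overlaps limit some of these values. Of the 40 genes, 17 have pseudogenes named after them in GENCODE 44, 157 in all, with 65 for GAPDH and 44 for BNIP3. Only 3 of these had a row, and their summed mean was 33.7 for TPI1 and 1.69 for PGAM1, or 0.171% and 0.0236% of the parent gene. PGAM4, a retrogene close to PGAM1 in sequence, had a mean normalized count of 155. Exon bases were shared with another gene on the same strand for 10 members and on the opposite strand for 19. The largest same-strand shares were those of EGLN1 (55.8%), ALDOA (42.8%) and LDHB (33.4%), each with a protein-coding model that has no symbol of its own and no row. How the authors' counter treated such reads is not given in the sources used here.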

How the data were processed

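Reads from the BT-549/tet-WDR5shRNA cultures (3 vehicle and 3 DOX) were processed by the authors, who per the labels and methods prepared TruSeq stranded mRNA libraries, aligned reads to GRCh38 with STAR, and normalized gene counts with DESeq2. The counter and its strand setting are not given in the sources used here, and the annotation release is unclear, since the methods only add a number to the name of the build. The deposited table lists 19792 symbols. The mean normalized count of each gene is a signal, averaged by the authors over all 6 libraries and deposited as such. Its 5 other value columns hold the authors' own comparison of DOX with vehicle (fold change, error, statistic and p-values) and were not used. No column of a single library was at hand, so planned tests between groups were not run, and depth per library is unknown.

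Symbols were matched to GENCODE 44 (GRCh38): 17729 directly, 591 through a RefSeq synonym, 1472 not. Matched rows held 98.37% of the summed means. Levels are means per kilobase of the canonical transcript, scaled to 1000000 over 18320 genes. No low-value filter was applied. Alternatives were other lengths, protein-coding genes only, added pseudogenes, whole gene families, a minimum mean of 10 and a shorter promoter window. The scaling was run on simulated data built with the same canonical lengths, which checks the arithmetic and not the choice of length. All members were named, and other genes as highest or lowest of a list or as relatives of a member. Members and lists were chosen with earlier results of these data known. Promoter sequences are from RefSeq (GRCh38.p14). Python 3.11.15, numpy 2.4.6, pandas 2.3.3 and matplotlib 3.10.9 were used.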

Additional observations from a re-analysis of the deposited data

How the results depend on the processing

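No paired analysis was possible because no column of a single library was at hand, and the comparison of the groups with its other normalization, filter and left-out cultures was not run for the same reason. Most shifts came with the choice of gene length, which was the only setting changed there. The share of the summed level held by the 40 genes was 2.36%, and 2.02% with all annotated exons, 1.62% with the coding length and 2.40% with protein-coding genes only in the scaling. The fold between the highest and the lowest glycolytic step was 32.6, and 45.2 with all exons and 23.1 with the coding length. The log2 ratio of the lowest later step to the highest of the first 3 was 0.41, then 0.62 with all exons and 0.95 with the coding length, and it turned to -0.70 without a length correction. The log2 ratio of the median glycolytic to the median TCA cycle enzyme was 1.61, 2.06 with all exons, 2.55 with the coding length and 1.96 without a length correction. Order reversed for HK1 over HK2 (-0.31 with all exons, -0.10 with the coding length and -0.10 uncorrected), LDHB over LDHA (-0.74 and -0.73, with the coding length and uncorrected) and PDK3 over PDK1 (-0.07 with all exons). The median level of gluconeogenic genes went from 39.7 to 66.1 at a minimum mean of 10, since 2 genes were dropped. The remaining counts stayed within 1.5 times of those given. In all, 67 alternative values were computed, of which 7 reversed, 44 moved in size, and 16 were equal to the value given or, as counts, within 1.5 times of it. Some of the equal values could not have changed. The minimum mean of 10 dropped no gene outside the gluconeogenic list, and the added pseudogenes touched neither the highest nor the lowest glycolytic step. The tally is thus not a measure of stability.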
